A study of Homo sapiens with 12 samples.

Results

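WNT proteins are secreted lipid-modified ligands that bind Frizzled receptors together with a coreceptor. With LRP5 or LRP6 as coreceptor the signal passes through Dishevelled proteins, stops the destruction complex of AXIN, APC and GSK3 from removing beta-catenin, and lets beta-catenin act with TCF and LEF factors at target genes. With ROR, RYK or PTK7 as coreceptor the ligands instead act on cell polarity and movement, and in the kidney both arms are known from nephron formation and repair. The 50 genes described here are ligands, receptors, antagonists and effectors of this pathway. They were a named list, chosen with no threshold on any value but with earlier results of these data known. They were found by symbol among the 58288 gene IDs of the count table, of which 26652 had at least 1 count. Of the 50, 40 passed the filter on low counts and were tested among 13959 genes, 8 had counts but were too low to test, and 2 had none.

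RNA sequencing was carried out on HK2 cells, an established human proximal tubule line, in 4 groups of 3 libraries. The nontarget cells (labelled WT) and the FLCN knockdown cells were each sampled below 30 passages, called short-term here, and above 120, called long-term, as the labels give it, while the study's methods give a lower limit for long-term cells. Both nontarget groups carried a nontargeting shRNA and both knockdown groups an shRNA against FLCN, the tumour suppressor lost in Birt-Hogg-Dubé syndrome. Knockdown cells had gone through clonal selection, and the labels call the 3 libraries of a group biological replicates. How many clones a group holds, and how separately its cultures were kept, is not given in the sources used here, so p-values measure the spread between these libraries and the effect of the shRNA and of the cell line that carries it cannot be told apart. Levels are given as counts per 1000000 (CPM) with TMM scaling, differences as log2 fold changes with their standard error (SE), and a gene was called when its two-sided p from edgeR's quasi-likelihood test, adjusted by Benjamini-Hochberg over all 13959 genes, was below 0.05.

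Library totals ran from 5825779 to 8991051 counts, so 3 counts, the upper limit that a count of 0 allows, equal 0.346 to 0.530 CPM. These limits, like every interval below on low counts, cover counting error only. FLCN stood at 12.7, 16.7 and 16.5 CPM in the short-term nontarget libraries, 5.95, 6.58 and 5.66 after short-term knockdown, 9.92, 11.9 and 12.2 in the long-term nontarget libraries and 6.70, 6.31 and 7.97 after long-term knockdown. It fell by 2.51-fold in the short term (log2 −1.33, SE 0.18, edgeR adjusted p = 0.000112) and by 1.63-fold in the long term (log2 −0.70, SE 0.18, edgeR adjusted p = 0.00611). Of 14 proximal tubule markers, 5 were tested, and LRP2, SLC22A6 and HNF4A had 0 counts in all libraries. PAX8 and GGT1 of this list rose after short-term knockdown (log2 0.33 and 0.51), and PAX8 rose with culture in nontarget cells (0.63). After long-term knockdown DPP4 (−2.08) and PAX8 (−0.61) fell and GGT1 (0.85) rose. The summed level of 6 epithelial markers, most of it from KRT8 and KRT18, lay between 2161 and 3595 CPM over the 12 libraries. Of 5 tested, none passed after short-term knockdown, EPCAM (−0.59) and KRT7 (−1.46) fell after long-term knockdown, and with culture in nontarget cells KRT18 rose (0.44) and KRT19 fell (−2.70). Of 6 fibroblast and pericyte markers, whose summed level was 49.2 to 56.8 CPM in the short-term and 24.6 to 36.6 in the long-term libraries, 3 were tested. LUM fell with culture in nontarget cells (−4.64) and rose after long-term knockdown (3.69), where PDGFRB fell (−3.56). Of 6 distal nephron and collecting duct markers 2 were tested, and CALB1 fell after knockdown at both times and rose with culture in nontarget cells, with 0.820 to 1.37 CPM in short-term controls, 0 to 0.177 after short-term knockdown, 2.95 to 5.69 in long-term controls and 0 to 0.116 after long-term knockdown. With culture in knockdown cells DPP4 (−2.28), PAX8 (−0.31), EPCAM (−1.31), KRT19 (−2.99), KRT7 (−1.66), PDGFRB (−1.74) and LUM (−0.94) fell, and no tested marker was called higher. Podocyte markers were at 0. The part of these marker changes in the results below was not tested. As these are bulk samples, fewer cells expressing a gene and less RNA per cell cannot be told apart.

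Before the results, the promoters of the list were read for words that its own TCF and LEF factors recognise and for an E-box. RefSeq promoters on GRCh38.p14, each 250 bases before to 50 after the start site, were matched for 37 of the 50 genes. A gene of the list was counted once if any of its promoters held a word, while the share of all promoters counts each promoter. The numbers below are thus not in like units. Searched on both strands, the TCF/LEF word CTTTGAT was present in 2.62% of all 35116 promoters and in 0 of the 37, and CTTTGAA in 4.43% of all promoters and in 1 of the 37, DKK1. The E-box CACGTG, the letters that TFE3 and other basic helix-loop-helix factors bind, was present in 7.26% of all promoters and in 2 of the 37, APC and DVL2. DVL2 holds it at 3 places. All 5 matches, in the secreted antagonist DKK1, the scaffold APC and the transducer DVL2, are shown with the matched word in capitals, each read on the strand of its gene.
DKK1, chr10:52314175-52314203, plus strand: ccctcccagcgCTTTGAAatcccatcccg
APC, chr5:112737828-112737855, plus strand: gggtgtgggcgCACGTGaccgacatgtg
DVL2, chr17:7234525-7234552, minus strand: tgcctttaagtCACGTGacatgaggaga
DVL2, chr17:7234572-7234599, minus strand: tgggaggggatCACGTGacggagggcgg
DVL2, chr17:7234591-7234618, minus strand: agtcagacggtCACGTGattgggagggg
The DKK1 word begins 95 and the APC word 46 bases upstream of the start site, and the 3 DVL2 words begin 24, 71 and 90 bases upstream. A match of letters describes these windows and was not tested against any measurement.

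Per kilobase of exon, the secreted antagonists DKK3 and DKK1 were the most abundant RNAs of the list. DKK3 had the highest mean in all 4 groups, at 127 ± 6.33 CPM per kilobase in short-term nontarget cells (SD, n = 3) and 90.2 ± 7.88 in long-term knockdown cells, followed by DKK1 at 85.9 ± 4.98 and 43.2 ± 7.80. After short-term knockdown the libraries of these DKK genes overlapped, and in the other 3 groups every DKK3 library lay above every DKK1 library. With the longest transcript in place of all exons, DKK1 came after CTNNB1 in both long-term groups. In short-term nontarget cells the next in order were FZD6 (31.4 ± 2.25), CTNNB1 (30.4 ± 1.43), FZD2 (22.6 ± 0.684), WLS (17.2 ± 1.11) and GSK3B (17.0 ± 0.937), of which FZD6 and CTNNB1, and WLS and GSK3B, did not differ beyond the spread of their libraries. The most abundant ligand was WNT5B (5.93 ± 0.931 CPM per kilobase), and the R-spondin RSPO3, the antagonist SFRP1 and the receptor ROR2 were at or near 0.

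**Figure D1:**
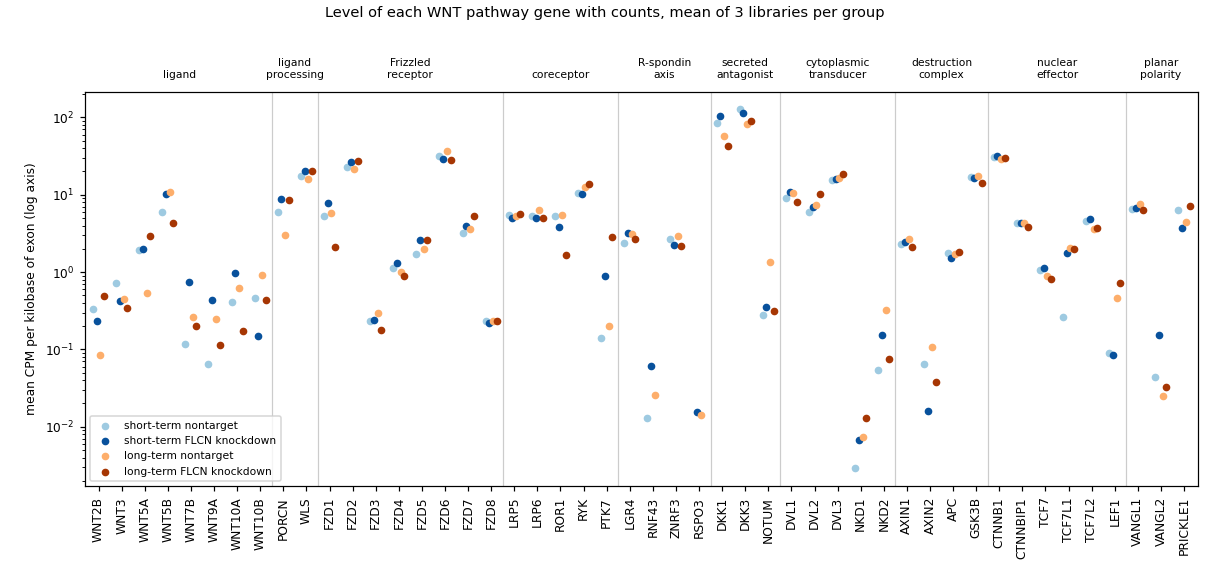
Mean CPM per kilobase of exon (log axis) of the 48 WNT pathway genes with counts, in order of role, for nontarget (light) and knockdown (dark) cells of the short term (blue) and the long term (orange and brown), each the mean of 3 libraries. A group mean of 0 has no point, as for RNF43 after long-term knockdown, and DKK3 and DKK1 stand above all other genes in every group.

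After short-term knockdown 6 of the 40 tested genes passed the test, a share of 15% beside 10.3% of all genes. Of these 5 were higher (5.62% of all genes) and 1 lower (4.71%). After long-term knockdown 18 of 40 passed (45% beside 29.5% of all genes), 8 of them higher (13.7% of all genes) and 10 lower (15.8%). With a change of at least 2.5-fold as well, the limit the study used, 3 passed in the short term (1.79% of all genes) and 9 in the long term (6.61%). The knockdown and control libraries did not overlap for 17 genes in the short term (30.2% of all genes) and for 25 in the long term (39.6% of all genes). The long-term effect differed from the short-term effect for 12 genes by the interaction test (13.4% of all genes), of which 4 had a higher (4.98%) and 8 a lower long-term effect (8.43%), and 9 of the 12 differed by at least 2.5-fold (5.44% of all genes). The median log2 fold change of the 40 was 0.07 after short-term and −0.16 after long-term knockdown, beside 0.00 over all genes in both. The short-term and long-term comparisons share no library, while the interaction and the comparisons of culture time below use the same libraries again. As the list was chosen with earlier results of these data known, its shares beside those of all genes are description only.

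**Figure D2:**
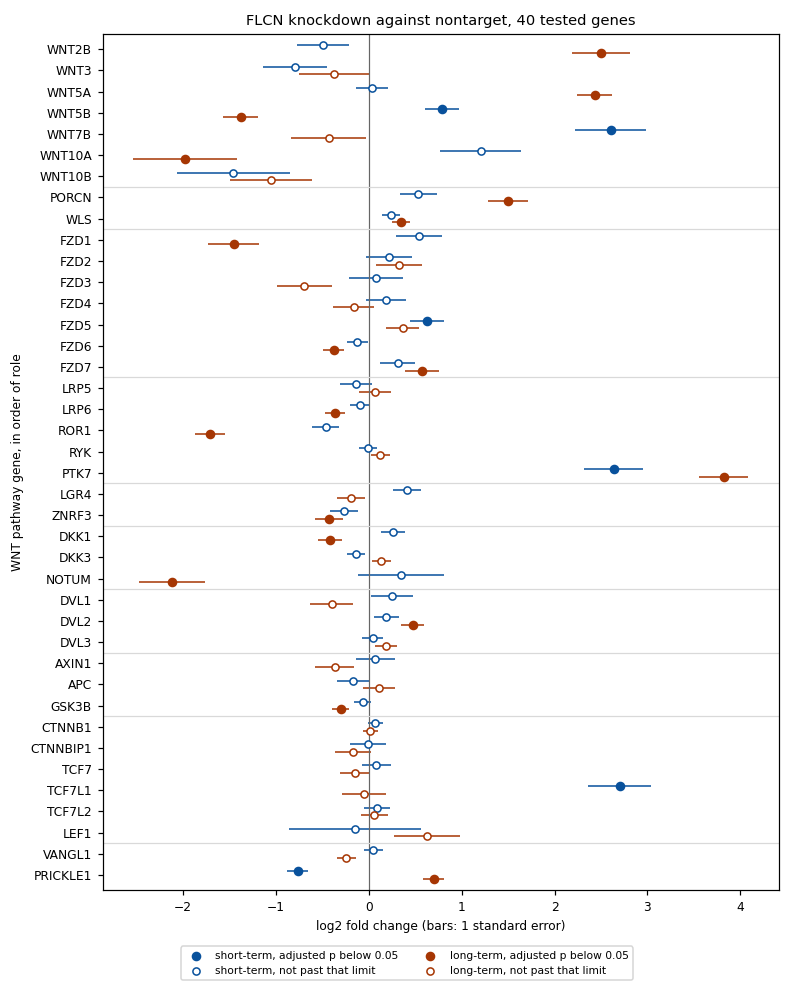
Log2 fold change of FLCN knockdown against nontarget cells for the 40 tested genes, in order of role, in the short term (blue) and the long term (brown), with 1 SE; filled points passed an adjusted p of 0.05. PTK7 lies far to the right in both, WNT7B and TCF7L1 in the short term, and WNT2B and WNT5A in the long term.

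Among the tested genes, in the fit of all 12 libraries, the 3 largest differences between the culture times in the effect of knockdown belonged to ligands. These were WNT10A (log2 −3.18), WNT7B (−3.04) and WNT2B (2.99). TCF7L1 came next (−2.75), and the WNT10A value depended on single libraries, so this order is not firm. Of the 7 tested ligands, 2 rose after short-term knockdown (5.62% of all genes rose). After long-term knockdown 2 rose and 2 fell (13.7% and 15.8% of all genes). WNT5A (chr3:55465715-55490539 on GRCh38), the ligand best known for signalling without beta-catenin, stood at 13.9, 12.6 and 16.8 CPM in the short-term nontarget libraries, 11.9, 15.4 and 17.3 after short-term knockdown, 4.69, 3.56 and 3.62 in the long-term nontarget libraries and 20.3, 21.1 and 23.1 after long-term knockdown. The long-term controls lay below every other library, and the short-term groups overlapped. Its log2 fold change was 0.03 in the short term (edgeR adjusted p = 0.946) and its long-term one 2.43 (SE 0.19, edgeR adjusted p = 6.05e-08), a 5.39-fold rise. WNT2B (chr1:112466541-112530165), a ligand of the beta-catenin arm, was likewise lowest in long-term controls, at 4.10, 3.34 and 5.03 CPM in short-term controls, 2.28, 4.09 and 2.48 in short-term knockdown, 0.804, 1.39 and 1.04 in long-term controls and 6.59, 5.28 and 6.44 in long-term knockdown. The lowest libraries were the 3 long-term controls and the highest the 3 of long-term knockdown. WNT2B rose 5.66-fold in the long term (log2 2.5, SE 0.31, edgeR adjusted p = 1.03e-05), and its short-term value was −0.49 (edgeR adjusted p = 0.326). Exons of WNT2B share 21.2% of their bases with ST7L on the opposite strand, and the strand setting of the counting is not given in the sources used here, so its level is uncertain to that extent. ST7L had log2 fold changes of −0.17 and 0.60 in the same comparisons.

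WNT5B (chr12:1529891-1647243), the paralog of WNT5A, moved in opposite directions at the culture times. It stood at 27.9, 27.8 and 20.9 CPM in the short-term nontarget libraries, 47.4, 38.2 and 47.1 after short-term knockdown, 39.1, 45.1 and 58.0 in the long-term nontarget libraries and 15.7, 15.3 and 24.3 after long-term knockdown. The short-term knockdown libraries lay above their controls, and the long-term knockdown libraries below theirs, with no overlap in either. WNT5B rose in the short term (log2 0.79, SE 0.18, edgeR adjusted p = 0.00951) and fell in the long term (−1.38, SE 0.19, edgeR adjusted p = 2.54e-05). The short-term call was lost without short-term nontarget replicate 3 (log2 0.67, edgeR adjusted p = 0.0599). WNT7B (chr22:45920362-45977129), known from the collecting duct, had the largest short-term rise of the 7 tested ligands. Its levels were 0.683, 0.759 and 0.314 CPM in short-term controls, 2.91, 3.36 and 4.96 in short-term knockdown, 1.34, 1.39 and 1.29 in long-term controls and 0.809, 1.03 and 1.19 in long-term knockdown. In short-term controls it sat near the level of 3 counts, and its short-term knockdown libraries were the highest of all. WNT7B rose 6.07-fold in the short term (log2 2.60, SE 0.38, edgeR adjusted p = 0.000262), on 12 against 74 counts per group, and had a long-term value of −0.43 (edgeR adjusted p = 0.462).

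WNT10A (chr2:218880363-218899581), a beta-catenin ligand of skin and teeth, stood at 1.91, 1.52 and 0.786 CPM in the short-term nontarget libraries, 4.05, 2.78 and 3.01 after short-term knockdown, 2.41, 1.55 and 2.33 in the long-term nontarget libraries and 0.116, 0.293 and 1.36 after long-term knockdown. Each long-term knockdown library lay below each long-term control, but replicate 3 of that group was several times higher than the other two. WNT10A fell in the long term (log2 −1.98, SE 0.56, edgeR adjusted p = 0.0122), on 11 against 46 counts. The call was lost without long-term knockdown replicate 1 (log2 −1.40, edgeR adjusted p = 0.0779) or replicate 2 (−1.72, edgeR adjusted p = 0.0529), and the value was −3.33 without replicate 3. Its short-term value was 1.21 (SE 0.44, edgeR adjusted p = 0.0954), past the limit without the filter (edgeR adjusted p = 0.0424) and with the 2 groups alone (0.0467). WNT10B and WNT3 did not pass either test. WNT10B had log2 fold changes of −1.46 and −1.06 in the short and long term (edgeR adjusted p = 0.155 and 0.0821). With the replicate number as a block the long-term value was −1.09 (edgeR adjusted p = 0.0420), and without short-term knockdown replicate 1 the short-term value was −2.81 (edgeR adjusted p = 0.0413). WNT3 had −0.80 and −0.37 (edgeR adjusted p = 0.170 and 0.505). WNT9A was below the filter, with 5 counts in short-term controls, 33 in short-term knockdown, 21 in long-term controls and 10 in long-term knockdown. Fitted without the filter its short-term log2 fold change was 2.65 (SE 0.69, edgeR adjusted p = 0.00354).

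The 2 genes of ligand processing both rose in the long term, where 13.7% of all genes rose. PORCN (chrX:48508962-48520814), the acyltransferase that puts the lipid on WNT proteins, stood at 19.0, 18.1 and 17.6 CPM in the short-term nontarget libraries, 23.8, 22.5 and 33.3 after short-term knockdown, 7.37, 7.28 and 12.6 in the long-term nontarget libraries and 24.6, 21.4 and 31.7 after long-term knockdown. The long-term controls were the lowest libraries and both knockdown groups the highest, without overlap with their controls. PORCN rose 2.83-fold in the long term (log2 1.5, SE 0.22, edgeR adjusted p = 4.25e-05), and its short-term value was 0.53 (SE 0.20, edgeR adjusted p = 0.113). It passed in the short term without the filter (edgeR adjusted p = 0.0274) and with the 2 groups alone (0.0455). WLS, the carrier that takes WNT proteins to the cell surface, rose by 0.34 on the log2 scale in the long term (SE 0.10, edgeR adjusted p = 0.0121), from 72.3 ± 4.20 to 91.7 ± 3.67 CPM, and had 0.24 in the short term (edgeR adjusted p = 0.144). The WLS call was lost without long-term nontarget replicate 2 (edgeR adjusted p = 0.0527) or long-term knockdown replicate 1 (edgeR adjusted p = 0.0576).

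**Figure D3:**
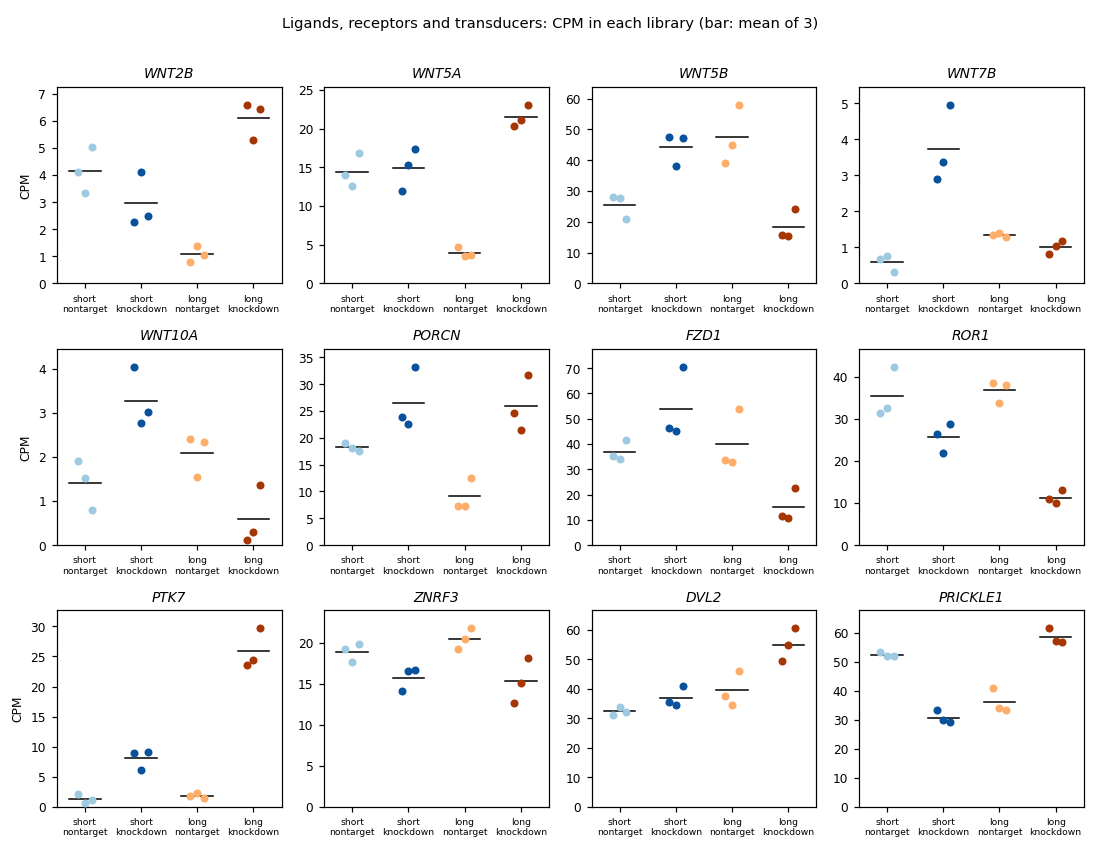
CPM (linear axes from 0) in each library for 12 ligands, receptors and transducers, with points for the 3 replicates of a group, from left to right 1, 2 and 3, and a bar at the mean. WNT2B, WNT5A and PORCN are lowest in long-term controls, FZD1 and ROR1 are lowest after long-term knockdown, and PTK7 is high in both knockdown groups.

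Among 7 tested Frizzled receptors, FZD5 passed in the short term (10.3% of all genes passed), and FZD1, FZD6 and FZD7 in the long term (29.5%). FZD1 (chr7:91264364-91271326) stood at 35.3, 34.0 and 41.6 CPM in the short-term nontarget libraries, 46.4, 45 and 70.6 after short-term knockdown, 33.6, 32.8 and 54.0 in the long-term nontarget libraries and 11.4, 10.9 and 22.4 after long-term knockdown. All 3 long-term knockdown libraries lay below the lowest of the other 9. FZD1 fell 2.75-fold in the long term (log2 −1.46, SE 0.27, edgeR adjusted p = 0.000751), while its short-term value was 0.54 (SE 0.25, edgeR adjusted p = 0.206). That value was past the limit without the filter on low counts (edgeR adjusted p = 0.0123) and with the 2 groups fitted alone (0.0486). The 40 tested genes nearest to FZD1 on its chromosome had a median of 0.41 in the long-term comparison, the opposite direction. FZD7, a receptor known from stem cells, rose in the long term (log2 0.58, SE 0.18, edgeR adjusted p = 0.0235), from 13.8 ± 3.78 to 20.7 ± 2.36 CPM. FZD6, the most abundant receptor, fell (−0.38, SE 0.12, edgeR adjusted p = 0.0188), from 149 ± 22.3 to 114 ± 12.2 CPM. FZD5 rose in the short term (0.62, SE 0.18, edgeR adjusted p = 0.0354), from 11.4 ± 1.44 to 17.6 ± 2.0 CPM, where the 40 genes nearest to it had a median of 0.31.

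The calls of these last 3 receptors depended on single libraries. FZD7 failed without long-term nontarget replicate 1 (edgeR adjusted p = 0.0807) or 2 (0.133) or long-term knockdown replicate 3 (0.0716). FZD6 failed without long-term nontarget replicate 1 (0.107) or long-term knockdown replicate 2 (0.0661) or 3 (0.0533). FZD5 failed without any of the 3 short-term controls or without short-term knockdown replicate 1 or 3 (edgeR adjusted p between 0.0718 and 0.157). In the long term FZD5 had a log2 fold change of 0.36 (edgeR adjusted p = 0.137) and with the replicate block 0.38 (edgeR adjusted p = 0.0499). FZD2, FZD3 and FZD4 passed in neither, with short-term values of 0.22, 0.08 and 0.18 and long-term values of 0.33, −0.69 and −0.16. Without long-term nontarget replicate 3 the long-term value of FZD3 was −0.88 (edgeR adjusted p = 0.0450). FZD4 shares 18.9% of its exon bases with PRSS23, a far more abundant gene on the other strand, and its level is uncertain. FZD8 had 75 counts in all and was not tested.

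PTK7 (chr6:43076268-43161719), a catalytically inactive receptor kinase of planar polarity, showed the largest change of the 40 tested genes in both knockdown comparisons except for TCF7L1 in the short term. It stood at 2.05, 0.607 and 1.1 CPM in the short-term nontarget libraries, 8.98, 6.14 and 9.03 after short-term knockdown, 1.74, 2.32 and 1.42 in the long-term nontarget libraries and 23.6, 24.4 and 29.7 after long-term knockdown. Both control groups stayed below 3 CPM, both knockdown groups lay above them, and every long-term knockdown library exceeded every short-term one. PTK7 rose 6.22-fold in the short term (log2 2.64, SE 0.31, edgeR adjusted p = 3.53e-05) and 14.1-fold in the long term (log2 3.82, SE 0.26, edgeR adjusted p = 1.03e-08). The long-term effect exceeded the short-term effect by 1.19 on the log2 scale, which did not pass the interaction test (SE 0.47, edgeR adjusted p = 0.109), except when short-term nontarget replicate 2 was left out (1.51, edgeR adjusted p = 0.0451). The 40 genes nearest to it had medians of −0.05 and 0.11.

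ROR1 (chr1:63774022-64181498), a receptor of WNT5A, went the other way from its ligand in the long term. Its levels were 31.3, 32.5 and 42.4 CPM in short-term controls, 26.3, 21.9 and 28.7 in short-term knockdown, 38.5, 33.8 and 38.0 in long-term controls and 10.9, 9.98 and 13.1 in long-term knockdown. The short-term knockdown libraries lay just below their controls, and the long-term ones far below theirs. ROR1 fell 3.27-fold in the long term (log2 −1.71, SE 0.16, edgeR adjusted p = 3.51e-07), and its short-term value was −0.47 (SE 0.15, edgeR adjusted p = 0.0555). The short-term value was past the limit without short-term knockdown replicate 3 (−0.55, edgeR adjusted p = 0.0420), without the filter (−0.47, edgeR adjusted p = 0.0385) and with DESeq2 (−0.46, DESeq2 adjusted p = 0.0472). RYK, another WNT receptor with an inactive kinase, had values of −0.01 and 0.13 (edgeR adjusted p = 0.972 and 0.369). ROR2, the closest relative of ROR1, had 0 counts in all 12 libraries, which allows up to 0.530 CPM in the library with the fewest counts.

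The coreceptors of the beta-catenin arm moved little. LRP6 stood at 52.2, 51.9 and 61.1 CPM in the short-term nontarget libraries, 54.9, 48.8 and 51.1 after short-term knockdown, 67.8, 66.3 and 62.9 in the long-term nontarget libraries and 52.7, 53.9 and 46.5 after long-term knockdown. Its long-term knockdown libraries lay below their controls, and the short-term groups overlapped. LRP6 fell in the long term (log2 −0.36, SE 0.11, edgeR adjusted p = 0.0157), a call that was lost without long-term knockdown replicate 3 (−0.30, edgeR adjusted p = 0.0563), and had −0.09 in the short term (edgeR adjusted p = 0.677). LRP5 stood at 37.9, 27.8 and 36.3 CPM in short-term controls, 29.5, 29.1 and 34.3 in short-term knockdown, 27.3, 33.8 and 37.3 in long-term controls and 28.7, 30.7 and 44.3 in long-term knockdown. The groups overlapped in both comparisons. LRP5 had log2 fold changes of −0.14 in the short term (95% interval −0.48 to 0.20) and 0.07 in the long term (−0.27 to 0.40).

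The R-spondin axis sets how many Frizzled receptors stay on the surface, since the ubiquitin ligases ZNRF3 and RNF43 remove them and R-spondins, through LGR receptors, block those ligases. ZNRF3 stood at 19.3, 17.6 and 19.8 CPM in the short-term nontarget libraries, 14.0, 16.5 and 16.6 after short-term knockdown, 19.2, 20.4 and 21.7 in the long-term nontarget libraries and 12.6, 15.1 and 18.1 after long-term knockdown. In both terms the knockdown libraries lay below their controls. ZNRF3 fell in the long term (log2 −0.43, SE 0.15, edgeR adjusted p = 0.0384) and had −0.27 (SE 0.15, edgeR adjusted p = 0.316) in the short term. The long-term call was lost without long-term nontarget replicate 2 (edgeR adjusted p = 0.0742) or 3 (0.103), without long-term knockdown replicate 1 (0.203) or 2 (0.0820), when the 2 groups were fitted alone (0.0850) and without the filter on low counts (0.0745). LGR4, the R-spondin receptor with enough counts to test, passed in neither comparison, at 0.41 and −0.19 (edgeR adjusted p = 0.110 and 0.388). RNF43 was below the filter, with 1, 0 and 1 counts in the short-term controls, 4, 6 and 0 after short-term knockdown, 1, 2 and 1 in the long-term controls and 0 in each long-term knockdown library. By summed counts it was 4.97 times higher after short-term knockdown (95% exact interval 1.06 to 46.6, counting error only), but the libraries overlapped and the fit without the filter did not pass (edgeR adjusted p = 0.449). RNF43 shares 57.6% of its exon bases with AC004687.2 on its own strand and 20.3% with TSPOAP1-AS1 on the other, so even these counts are uncertain. RSPO3 had 2 counts in all.

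The secreted antagonists, which bind WNT proteins or their coreceptors outside the cell, gave no call as higher after knockdown at either time among the 3 tested. DKK1 (chr10:52314296-52318042), the inhibitor of LRP6 whose promoter stretch is shown above, stood at 179, 189 and 200 CPM in the short-term nontarget libraries, 222, 194 and 266 after short-term knockdown, 139, 118 and 125 in the long-term nontarget libraries and 91.1, 80.7 and 114 after long-term knockdown. The long-term knockdown libraries were the lowest and the short-term groups overlapped. DKK1 fell in the long term (log2 −0.42, SE 0.13, edgeR adjusted p = 0.0237) and had 0.26 (SE 0.13, edgeR adjusted p = 0.243) in the short term. The long-term call was lost without long-term nontarget replicate 1 (edgeR adjusted p = 0.0890) or without long-term knockdown replicate 1 (0.0838) or 2 (0.113). DKK3, a divergent family member often silenced in tumours, stood at 651, 668 and 606 CPM in short-term controls, 552, 619 and 579 in short-term knockdown, 373, 424 and 451 in long-term controls and 428, 440 and 502 in long-term knockdown. Knockdown and control libraries overlapped at both times. Its log2 fold changes were −0.14 in the short term (95% interval −0.33 to 0.06) and 0.13 in the long term (−0.06 to 0.33).

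NOTUM (chr17:81952507-81961840), the secreted esterase that takes the lipid off WNT proteins and is itself a known beta-catenin target, stood at 0.683, 1.06 and 0.786 CPM in the short-term nontarget libraries, 1.14, 1.32 and 0.708 after short-term knockdown, 3.08, 4.03 and 5.30 in the long-term nontarget libraries and 0.924, 0.587 and 1.36 after long-term knockdown. The 3 long-term controls were above all other libraries, which overlapped with each other. NOTUM fell 4.35-fold in the long term (log2 −2.12, SE 0.36, edgeR adjusted p = 0.000222), on 20 against 90 counts, and had 0.35 in the short term (edgeR adjusted p = 0.725). The 40 genes nearest to it had a long-term median of 0.47, the opposite direction. SFRP1, an antagonist that binds WNT proteins directly, had 0 counts in all 12 libraries, with the same limit as ROR2.

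Among the cytoplasmic transducers, DVL2 rose in the long term. It stood at 31.3, 33.7 and 32.0 CPM in the short-term nontarget libraries, 35.4, 34.4 and 41.1 after short-term knockdown, 37.7, 34.7 and 46.2 in the long-term nontarget libraries and 49.6, 54.7 and 60.5 after long-term knockdown. The knockdown libraries lay above their controls at both times. Its long-term log2 fold change was 0.47 (SE 0.13, edgeR adjusted p = 0.00868), a call lost without long-term nontarget replicate 2 (0.38, edgeR adjusted p = 0.0610), and its short-term value was 0.19 (SE 0.13, edgeR adjusted p = 0.433). The 40 genes nearest to DVL2 had a long-term median of 0.32, and their part in the result was not tested. DVL1 and DVL3, the other Dishevelled proteins, passed in neither, with 0.25 and 0.04 in the short term and −0.40 and 0.18 in the long term. DVL1 passed in the long term with the replicate block (−0.42, edgeR adjusted p = 0.0293), without the filter on low counts (−0.40, edgeR adjusted p = 0.0394) and without long-term knockdown replicate 3 (−0.77, edgeR adjusted p = 0.00359). NKD1 and NKD2, feedback inhibitors that bind Dishevelled, had 10 and 35 counts in all and were not tested.

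The destruction complex changed little at the RNA level. GSK3B, its kinase, fell in the long term (log2 −0.30, SE 0.09, edgeR adjusted p = 0.0196), from 142 ± 9.47 to 115 ± 7.43 CPM. That call was lost without long-term nontarget replicate 1 (edgeR adjusted p = 0.0710) or long-term knockdown replicate 3 (0.0663), when the 2 groups were fitted alone (0.0612) and without the filter (0.0675). The scaffolds AXIN1 and APC passed in neither, with long-term values of −0.37 and 0.11, and AXIN1 had −0.57 without long-term nontarget replicate 1 (edgeR adjusted p = 0.0474). AXIN2, the feedback scaffold widely used as a readout of beta-catenin signalling, had 4, 1 and 2 counts in the short-term controls, 2, 0 and 0 after short-term knockdown, 6, 4 and 2 in the long-term controls and 0, 4 and 0 after long-term knockdown. At this depth no difference in AXIN2 was detectable (edgeR adjusted p = 0.622 and 0.40 in the short and long term, fitted without the filter). AXIN2 shares 25.2% of its exon bases with AC004805.1 on the same strand, which had 0 counts, so its own counts are uncertain.

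CTNNB1, which encodes beta-catenin, passed neither test. It stood at 365, 344 and 378 CPM in the short-term nontarget libraries, 388, 376 and 375 after short-term knockdown, 359, 356 and 334 in the long-term nontarget libraries and 357, 363 and 340 after long-term knockdown. All groups overlapped with their controls. The log2 fold change was 0.07 in the short term (95% interval −0.09 to 0.23) and 0.01 in the long term (−0.15 to 0.18), so the intervals hold no change of RNA beyond 0.23 on the log2 scale. CTNNBIP1, which keeps beta-catenin from TCF factors, passed in neither (−0.01 and −0.17).

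The 4 TCF and LEF factors, the DNA-binding partners of beta-catenin, differed from each other. TCF7L1 (chr2:85133410-85310388), mostly a repressor, stood at 1.78, 0.607 and 1.1 CPM in the short-term nontarget libraries, 6.58, 9.36 and 7.43 after short-term knockdown, 6.43, 9.45 and 11.5 in the long-term nontarget libraries and 7.97, 8.36 and 10.3 after long-term knockdown. The 3 short-term controls were far below all other libraries, and the other 3 groups overlapped. TCF7L1 rose 6.50-fold in the short term (log2 2.70, SE 0.34, edgeR adjusted p = 5.49e-05), the largest short-term change of the 40 tested genes, and had −0.05 in the long term (edgeR adjusted p = 0.908). The 40 genes nearest to TCF7L1 had medians of 0.35 and 0.64, and their part in the result was not tested. TCF7L2, the most abundant of the 4 per kilobase in short-term controls, stood at 31.7, 30.5 and 30.3 CPM in short-term controls, 30.6, 31.3 and 36.8 in short-term knockdown, 20.5, 21.8 and 29.6 in long-term controls and 26.0, 23.6 and 25.4 in long-term knockdown. Knockdown and control libraries overlapped at both times, with log2 fold changes of 0.09 and 0.06 (95% intervals −0.19 to 0.36 and −0.22 to 0.34).

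TCF7 stood at 10.9, 9.72 and 11 CPM in the short-term nontarget libraries, 10.4, 10.7 and 12.6 after short-term knockdown, 8.71, 8.52 and 9.83 in the long-term nontarget libraries and 8.44, 8.07 and 7.80 after long-term knockdown. Its long-term knockdown libraries lay just below their controls. The log2 fold changes were 0.08 and −0.15 (95% intervals −0.23 to 0.39 and −0.47 to 0.16), and neither passed. LEF1, known from cells in epithelial-mesenchymal transition, stood at 0.683, 0.304 and 0.471 CPM in short-term controls, 0.127, 0.877 and 0.354 in short-term knockdown, 1.34, 3.41 and 2.72 in long-term controls and 3.47, 4.26 and 3.73 in long-term knockdown. Both short-term groups were near the level of 3 counts and both long-term groups above them. The short-term log2 fold change of LEF1 was −0.15 (SE 0.71, edgeR adjusted p = 0.938) and its long-term one 0.62 (SE 0.35, edgeR adjusted p = 0.208). The short-term value of LEF1 rested on 10 counts in controls and 9 after knockdown and ran from −1.09 without short-term knockdown replicate 2 to 0.36 without replicate 1 of that group, and passed in neither case.

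**Figure D4:**
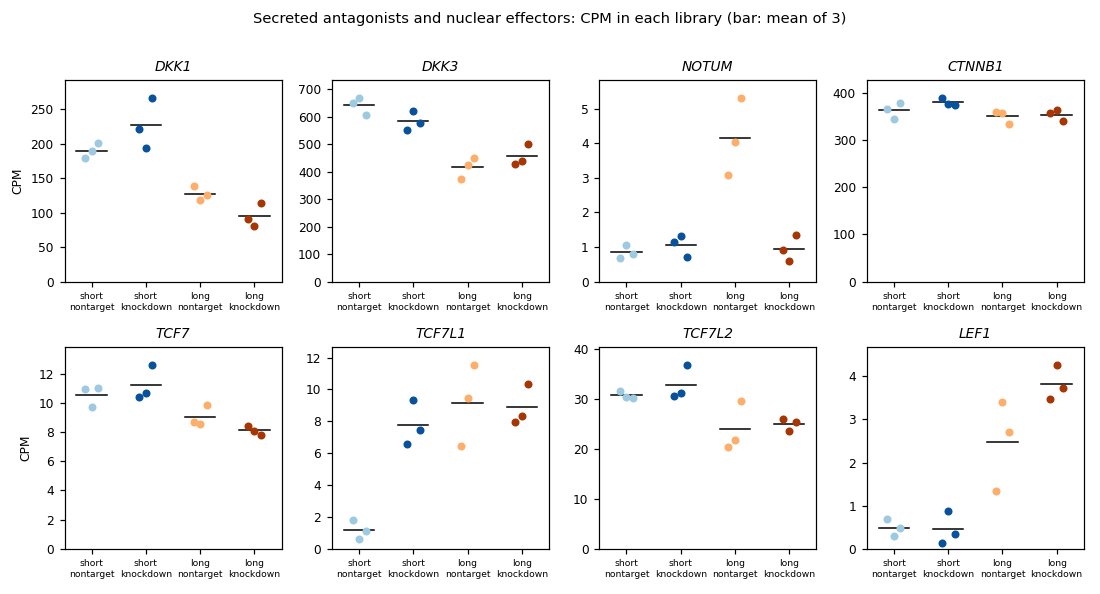
CPM (linear axes from 0) in each library for 3 secreted antagonists and 5 nuclear effectors, with points for the 3 replicates of a group and a bar at the mean. CTNNB1 sits between 334 and 388 CPM in all 12 libraries, NOTUM is high in long-term controls, TCF7L1 is low in short-term controls, and LEF1 is higher in both long-term groups.

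PRICKLE1 (chr12:42456757-42590355), a core protein of planar polarity, changed in opposite directions at the culture times. It stood at 53.3, 51.9 and 52.2 CPM in the short-term nontarget libraries, 33.3, 29.8 and 29.2 after short-term knockdown, 41.0, 34.1 and 33.4 in the long-term nontarget libraries and 61.6, 57.4 and 56.8 after long-term knockdown. Short-term controls and long-term knockdown libraries were high, the other groups low, and no knockdown library overlapped its controls. PRICKLE1 fell in the short term (log2 −0.77, SE 0.11, edgeR adjusted p = 0.000237), the one called fall of the list there, and rose in the long term (0.70, SE 0.11, edgeR adjusted p = 0.000113). It shares 22.5% of its exon bases with AC079601.1 on the other strand, which had log2 fold changes of −0.76 and 0.83, and the reads of the pair cannot be told apart where the counting ignored strand. VANGL1, another polarity protein, had 0.05 and −0.24, and with the replicate block −0.24 in the long term (edgeR adjusted p = 0.0383). VANGL2 had 28 counts in all and was not tested.

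The controls themselves changed with culture. Between short-term and long-term nontarget cells 10 of the 40 genes passed, a share of 25% beside 7.55% of all genes, of which 4 were higher (3.17% of all genes) and 6 lower (4.38%) in long-term cells. At least a 2.5-fold change was seen for 5 of them (1.88% of all genes), and the libraries of 18 genes did not overlap (25.7%). TCF7L1 (log2 2.93, SE 0.33, edgeR adjusted p = 2.0e-05), NOTUM (2.28), LEF1 (2.28) and WNT5B (0.89) rose. WNT2B (−1.94, SE 0.33, edgeR adjusted p = 0.00115), WNT5A (−1.86), PORCN (−1.0), DKK3 (−0.63), DKK1 (−0.57) and PRICKLE1 (−0.54) fell. Of these calls, PORCN was lost without long-term nontarget replicate 2 (edgeR adjusted p = 0.0552), as was DKK1 (0.0591), and LEF1 without short-term nontarget replicate 2 (0.0523), while TCF7L2 was past the limit without long-term nontarget replicate 3 (−0.55, edgeR adjusted p = 0.0268). The long-term nontarget libraries enter this comparison and the long-term knockdown comparison. The falls of WNT5A, WNT2B, PORCN and PRICKLE1 here and their rises there thus rest on the same low values. Likewise the rises of NOTUM and WNT5B here and their falls there rest on the same high values.

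Between short-term and long-term knockdown cells 16 genes passed, a share of 40% beside 26.6% of all genes, of which 7 were higher (11.5% of all genes) and 9 lower (15.2%). At least a 2.5-fold change was seen for 5 (6.25% of all genes), and the libraries of 21 genes did not overlap (38.1%). LEF1 (log2 3.05, SE 0.49, edgeR adjusted p = 0.000156), PTK7 (1.68), WNT2B (1.05), PRICKLE1 (0.93), DVL2 (0.57), WNT5A (0.54) and RYK (0.41) rose. WNT10A (−2.62, SE 0.52, edgeR adjusted p = 0.00118), WNT7B (−1.88), FZD1 (−1.88), WNT5B (−1.28), DKK1 (−1.25), ROR1 (−1.19), TCF7 (−0.46), TCF7L2 (−0.39) and DKK3 (−0.35) fell. TCF7 and TCF7L2 failed without any 1 of the 6 libraries (edgeR adjusted p up to 0.147 and 0.166, both without short-term knockdown replicate 3). WNT5A failed without short-term knockdown replicate 1 (0.123) or long-term knockdown replicate 2 (0.0540) or 3 (0.0522), and DKK3 without short-term knockdown replicate 2 (0.0547) or long-term knockdown replicate 1 (0.0644). WNT10A had −3.97 without long-term knockdown replicate 3, and LEF1 3.99 without short-term knockdown replicate 2. Past the limit without 1 library were WNT10B (2.73, edgeR adjusted p = 0.0218, without short-term knockdown replicate 1) and DVL1 (−0.78, edgeR adjusted p = 0.00398, without long-term knockdown replicate 3). With the replicate block FZD7 (0.43, edgeR adjusted p = 0.0484) and DVL1 (−0.43, edgeR adjusted p = 0.0291) passed as well. LEF1 thus rose with culture both without and with knockdown, and DKK1 and DKK3 fell in both.

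**Figure D5:**
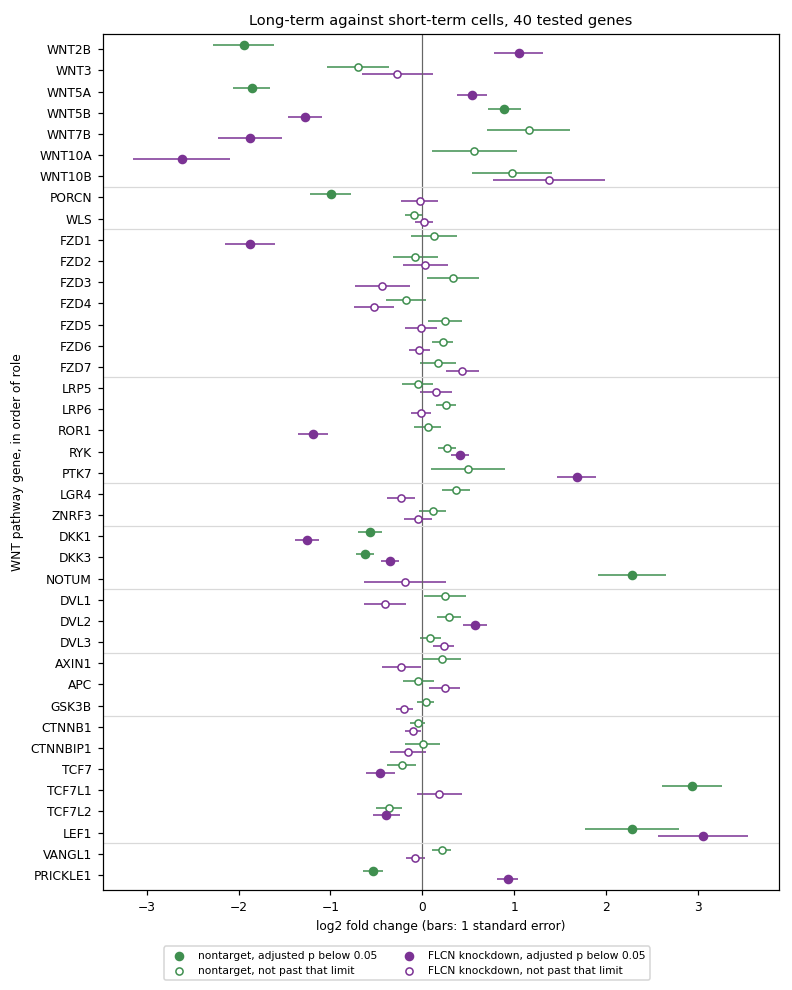
Log2 fold change of long-term against short-term cells for the 40 tested genes, in order of role, in nontarget cells (green) and in FLCN knockdown cells (purple), with 1 SE; filled points passed an adjusted p of 0.05. LEF1 lies to the right and DKK1 and DKK3 to the left in both, and WNT2B and WNT5A lie on opposite sides.

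Beyond the 50 genes, 83 other genes of the pathway were looked up, of which 53 were tested. In the short term 3 rose and 4 fell, and in the long term 9 rose and 9 fell, beside 10.3% and 29.5% of all genes called in either direction, with median log2 fold changes of 0.05 and −0.11. Past a 2.5-fold change were GPC4, DACT3 and FUZ, all in the long term. GPC4, a glypican that holds WNT proteins at the cell surface, went from 133 ± 5.29 to 267 ± 13.3 CPM in the short term (log2 1.01, SE 0.10, edgeR adjusted p = 6.52e-06) and from 255 ± 34.0 to 88.8 ± 3.33 in the long term (−1.52, SE 0.10, edgeR adjusted p = 9.25e-09), the same pair of directions as WNT5B. DACT3, an antagonist of Dishevelled, fell in the long term (−2.0, SE 0.42, edgeR adjusted p = 0.00157), as did FUZ, a planar polarity effector needed for cilia (−1.56, SE 0.38, edgeR adjusted p = 0.00462).

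Of 34 WNT target genes, 25 were tested. In the short term 4 rose and 1 fell, and in the long term 3 rose and 12 fell, beside the same 10.3% and 29.5% of all genes, with medians of 0.09 and −0.41. CCND1, which encodes cyclin D1, had 112 to 124 CPM in short-term controls, 171 to 197 after short-term knockdown, 134 to 161 in long-term controls and 3.24 to 3.67 after long-term knockdown. It rose in the short term (log2 0.61, SE 0.10, edgeR adjusted p = 0.000618) and fell in the long term (−5.38, SE 0.14, edgeR adjusted p = 4.79e-14), where its level was far below every other group. MMP7, a matrix protease, likewise rose (1.54, SE 0.38, edgeR adjusted p = 0.0147) and fell (−1.49, SE 0.38, edgeR adjusted p = 0.00656). The pseudoreceptor BAMBI rose in the short term (2.36, SE 0.35, edgeR adjusted p = 0.000256). SOX9, a factor of progenitor cells and tubule repair, rose in the long term (2.23, SE 0.25, edgeR adjusted p = 2.44e-06). The long-term falls past 2.5-fold also included FGF18 (−3.38), CCN5 (−2.14), BMP4 (−1.84) and PLAUR (−1.67). Many of these targets also answer to other pathways, and the list holds genes that moved either way.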

How the data were processed

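RNA was measured in 12 libraries of HK2 cells. The authors prepared TruSeq RNA libraries, sequenced them on a MiSeq, trimmed reads with fastp, mapped them with STAR and counted them per gene with featureCounts. The build was GRCh38 per the submitters' processing notes, and versions, annotation release and strand setting are not given in the sources used here. The deposited raw values have the unit count, and the authors' normalized columns, which have the unit score here, were not analysed. Values in the deposited table and in the per-library files differed in 0 cases.

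The test was edgeR 4.0.16 under R 4.3.3. Its filterByExpr step, given the 4 groups, kept 13959 genes, which hold 99.8% of the counts. TMM factors and 1 robust quasi-likelihood fit (glmQLFit) of all 12 libraries were used, with a prior count of 0.125 and Benjamini-Hochberg adjustment. The SE is the log2 fold change over the square root of F, and 95% intervals are normal approximations from it. The spread between replicates, as the biological coefficient of variation, was 12.0%. When 200 of the 13959 genes were changed 3-fold in simulated counts, 88% were recovered in the short-term, 91% in the long-term and 72.5% in the interaction comparison, and 8.33%, 9% and 7.05% of the calls were false. Replicates differed by more than counting error (chi-square per degree of freedom 2.07 to 11.9).

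The genes and lists were chosen with earlier results of these data known. Values for each library are given for genes called with at least a 2-fold change in any of the 5 comparisons and for CTNNB1, AXIN2, LEF1, TCF7, TCF7L1, TCF7L2, DKK1, DKK3, SFRP1, LRP5, LRP6, RNF43 and ZNRF3, and DVL2 was added after its values were seen. Of other pathway genes and targets, those called with at least a 2.5-fold change in a knockdown comparison are named. Lengths, coordinates and exon overlaps come from GENCODE release 29, and 47 of the 50 genes matched with the same ID version.

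Replicate numbers come from the titles of the samples. Libraries of the same number deviated together in long-term knockdown and nontarget cells (correlations over genes of 0.284, 0.123 and 0.458) and in long-term and short-term knockdown cells (0.223, 0.292 and 0.455). Numbers 1 and 2 were not clearly told apart, as long-term nontarget replicate 1 and long-term knockdown replicate 2 had 0.231. The main fit has no term for the replicate number, so its tests leave any such pairing out. A fit with the number as a block is given as an alternative. Same-numbered libraries did not deviate together in short-term knockdown and nontarget cells (0.0172, 0.111 and 0.0540).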

Additional observations from a re-analysis of the deposited data

Results flagged for a closer look

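For 12 genes the effect of long-term knockdown differed from that of short-term knockdown by the interaction test (edgeR adjusted p below 0.05), and each value here is the long-term minus the short-term log2 fold change. The ligands WNT2B (2.99) and WNT5A (2.40), the acyltransferase PORCN (0.97) and the polarity gene PRICKLE1 (1.46) had the higher effect in the long term. The ligands WNT10A (−3.18), WNT7B (−3.04) and WNT5B (−2.17), the factor TCF7L1 (−2.75), the antagonists NOTUM (−2.47) and DKK1 (−0.68) and the receptors FZD1 (−2.0) and ROR1 (−1.24) had the lower one.

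WNT5B and PRICKLE1 passed the test in both knockdown comparisons, with opposite signs. The long-term controls were the lowest group for WNT5A and WNT2B and the highest for NOTUM, and the short-term controls were the lowest for TCF7L1. The PORCN difference failed without any 1 of 9 of the 12 libraries (edgeR adjusted p up to 0.114, without long-term nontarget replicate 2), passing without short-term knockdown replicate 3, long-term nontarget replicate 3 and long-term knockdown replicate 2, and that of DKK1 failed without short-term nontarget replicate 1 (0.0600), long-term knockdown replicate 1 (0.0537) or long-term knockdown replicate 2 (0.0576). WNT10A had −4.54 without long-term knockdown replicate 3. Past the limit without 1 library were PTK7 (1.51, edgeR adjusted p = 0.0451, without short-term nontarget replicate 2), LGR4 (−0.73, edgeR adjusted p = 0.0451, without short-term nontarget replicate 3) and DVL1 (−1.02, edgeR adjusted p = 0.00667, without long-term knockdown replicate 3). The genes around WNT10A, FZD1 and NOTUM, 40 each, had median interaction values of −0.50, 0.48 and 0.37, and their part was not tested.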

How the results depend on the processing

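Of the 50 genes, those called numbered 6 in the short-term comparison, 18 in the long-term comparison, 10 and 16 with culture time without and with knockdown, and 12 in the interaction. Without the filter on low counts the short-term number was 11. The p-values of that fit differed from the main ones even where the fold change did not. Long-term WNT5A had a log2 fold change of 2.43 in both, with edgeR adjusted p = 1.07e-28 without the filter and 6.05e-08 with it. For short-term WNT3 (−0.80 in both) they were 0.278 and 0.170. Over the 5 comparisons the fit without the filter added 7 calls and lost 4, so its p-values are not on the footing of the main fit. With a mean of at least 10 CPM required, the numbers were 3 in the short term, 6 and 10 with culture time and 7 in the interaction, since fewer of the genes were then tested. With a fold change of at least 2.5 required as well, they were 3, 9, 5 and 5 for the first 4 comparisons. Leaving out 1 library in turn, they ranged from 4 to 6, 14 to 18, 8 to 11, 13 to 14 and 10 to 12. The level per kilobase of DKK3 with its longest transcript in place of all exons was 242, 220, 157 and 172 CPM in short-term nontarget, short-term knockdown, long-term nontarget and long-term knockdown cells, still the highest of the list, while DKK1 fell behind CTNNB1 in long-term nontarget (71.1 against 71.6) and long-term knockdown cells (53.3 against 72.3). No direction of a called gene was reversed by any alternative run.

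With the replicate number as a block 9, 22, 11, 18 and 14 genes were called, and no call was lost. The share of all genes called in the block fit and the other alternative runs is not given here. Their numbers thus cannot be read as a result about the list. Beside the calls given with the results, the block added PORCN (0.51), FZD1 (0.52) and ROR1 (−0.46) in the short term, RYK (0.27) with culture without knockdown, and LGR4 (−0.60) and DVL1 (−0.64) in the interaction. DESeq2 in place of edgeR lost 1 call, TCF7 with culture after knockdown (DESeq2 adjusted p = 0.0882), and added 1. RLE factors changed no call. A prior count of 2, an alternative chosen after seeing the data, alters the fold changes but does not enter the p-values, so it is no check of the calls. Genes near the level of 3 counts (WNT7B, WNT10A, NOTUM and LEF1 in their low groups) and the 10 untested genes are limited by depth.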

Other observations

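Several genes of the list stood higher in the libraries numbered 3 than in their fellows. Among the tested genes, FZD1, FZD2, FZD5, FZD7, LRP5, ZNRF3, PORCN, DVL1, DVL2 and DVL3 showed this in 3 groups. Each had its highest value of the group in replicate 3 of short-term knockdown, of long-term nontarget and of long-term knockdown. FZD2, a receptor named here for this pattern, stood at 49.3, 47.1 and 46.7 CPM in the short-term nontarget libraries, 49.2, 40.1 and 78.4 after short-term knockdown, 37.5, 39.3 and 58.7 in the long-term nontarget libraries and 46.8, 45.8 and 78.5 after long-term knockdown, and DVL1 at 34.0, 35.7 and 32.8 CPM in short-term controls, 34.5, 35.8 and 52.4 in short-term knockdown, 35.1, 37.6 and 48.5 in long-term controls and 21.6, 26.0 and 45.5 in long-term knockdown. The libraries numbered 3 of these 3 groups also deviated together over all genes, with correlations of 0.467, 0.455 and 0.458 between their deviations from the group means. Replicate 3 had the fewest counts of its group in both knockdown groups and the most among long-term controls (5825779, 6031734 and 7592062). The part of any of these in the results was not tested.

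Genes below the filter showed few counts but not evenly. NKD2 had 3 counts in short-term controls and 20 in long-term controls, a ratio of 6.24 in counts per total (95% exact interval 1.85 to 32.8, counting error only), which did not pass when fitted without the filter (edgeR adjusted p = 0.0981), and 4 after long-term knockdown. RNF43 had 10 counts after short-term knockdown, 4, 6 and 0 by library, and 0 after long-term knockdown. By counting error only, that is at least 3.49-fold lower against a floor of 3 counts over the group (edgeR adjusted p = 0.0282 without the filter). Short-term knockdown replicate 3 was itself at 0, so the groups overlapped. WNT9A, fitted without the filter, had a lower long-term than short-term effect of knockdown (log2 difference −3.68, edgeR adjusted p = 0.00271).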
